A study of Mus musculus with 6 samples.

Results

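The integrated stress response (ISR) transcription core is described here as 10 genes: the transcription factor genes Atf4, Ddit3, Atf3, Atf5 and Cebpg, the coregulator genes Nupr1 and Trib3, and the effector genes Ppp1r15a, Chac1 and Sesn2. They are 10 of the 16880 genes listed in the expression table, and all 10 were among the 11983 genes that passed a filter on low counts and were tested. The genes were chosen by function, but with their fold changes between these same libraries already known, so their differences are given as descriptions, without p-values. RNA was sequenced from cells that all received the inflammatory cytokine IL-1β at 10 ng/mL, and 3 of the 6 libraries came from cells that were also given NP-G2-044, a small molecule inhibitor of the actin-bundling protein FSCN1, at 10 μmol/L. The methods give 24 h of treatment. Every comparison therefore sets the inhibitor on top of IL-1β against IL-1β alone, 3 libraries against 3. ATDC5, a chondrogenic line from mouse, is the cell named in the labels, whereas the methods speak of chondrocytes. The titles of the treated samples give NP-G2-044 and their treatment label NP-G2-047. The methods also name a DMSO group, but the 6 libraries include none, so the effect of IL-1β alone on these genes cannot be seen. Whether the cells given IL-1β alone also received DMSO is not stated. If they did not, the inhibitor and its solvent cannot be told apart here.

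In the ISR, several kinases sense different stresses and phosphorylate the translation initiation factor eIF2. Bulk protein synthesis then falls, while the mRNA of ATF4 is translated better because of the short open reading frames ahead of its coding sequence. ATF4 pairs with C/EBP family proteins on composite C/EBP-ATF response elements and switches on genes for amino acid supply, redox balance and, through CHOP (the product of Ddit3), cell death. RNA sequencing measures the mRNAs of this programme and neither eIF2 phosphorylation nor protein.

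The 6 libraries held 16615824 to 17735860 reads each. Of 15 chondrocyte markers, 10 are listed and 2 reached a mean of 1 TPM (a transcript level corrected for gene length and library depth). These were Sox9, with means of 6.44 TPM without the inhibitor and 11.4 TPM with it, and Col11a2, with 5.01 and 3.43 TPM. Col2a1 averaged 0.217 TPM without the inhibitor and 0.04 TPM with it. The listed chondrocyte markers summed to 12.2 to 12.8 TPM with IL-1β and 15.5 to 15.8 TPM with NP-G2-044. Of 10 fibroblast markers, 8 reached 1 TPM, and their summed level was 7920 to 8120 TPM with IL-1β and 2750 to 2880 TPM with NP-G2-044. Most of that difference lay in S100a4, with means of 4310 and 730 TPM, while Pdgfra (2.36 and 8.69 TPM) and Fn1 (361 and 417 TPM) had higher means with the inhibitor. The 6 listed of 8 osteoblast markers summed to 108 to 124 TPM and 19.0 to 21.2 TPM, and the 4 listed of 6 adipocyte markers to 4.87 to 7.53 TPM and 0.48 to 0.91 TPM. The endothelial and muscle lists had no marker at 1 TPM. Of 7 macrophage markers, 6 are listed, and their sum was 23.8 to 24.6 TPM and 129 to 140 TPM, with Ptprc at 0 in every library. Cd68 had means of 12.4 and 130 TPM, whereas the means of Cd14 (11.4 and 4.89 TPM), Lyz2 (0.36 and 0.11 TPM) and Csf1r (0.217 and 0.137 TPM) were lower with the inhibitor. The part of these shifts in the results below was not tested. Fscn1 itself averaged 616.2 ± 9.46 TPM without and 252.4 ± 2.46 TPM with the inhibitor (SD, n = 3 each). The methods call the replicates biological, and the labels do not say whether cultures were separate, so p-values measure the spread between these libraries. That spread was narrow, with a common coefficient of variation beyond counting error of 2.33% in edgeR.

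To show the DNA on which ATF4 and its partners are known to act, promoter windows of 250 bases before and 50 bases after each gene start were taken from RefSeq (GRCm38.p6, the same assembly as the mm10 build that the submitters' processing notes name). All 10 members matched, Atf5 with 2 starts. The core of the C/EBP-ATF response element, TTGCATCA on either strand, was present in the windows of Atf3, Nupr1 and Chac1, 3 of the 10 members, against 0.895% of all 32851 windows. In Atf3 and in Nupr1 it lay at the same place, from position −110 to −103 relative to the start, and in Chac1 from −193 to −186. The looser form TGATGNAAN, which covers the core on its opposite strand, occurred in 3.95% of windows and in 1 further member, Trib3, where it lay after the start. The window of Ppp1r15a held the cAMP response element TGACGTCA (1.79% of windows), which CREB and ATF family proteins bind, from position −12 to −5. The 4 upstream stretches are shown because they place these sites, with the site in capitals and 5′ to 3′ on the strand of the gene. The Atf3 stretch is chr1:191183406-191183473 (minus strand), that of Nupr1 chr7:126625543-126625610 (minus strand), that of Chac1 chr2:119351019-119351086 (plus strand) and that of Ppp1r15a chr7:45526269-45526310 (minus strand).
Atf3: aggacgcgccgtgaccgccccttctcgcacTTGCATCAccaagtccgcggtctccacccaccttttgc
Nupr1: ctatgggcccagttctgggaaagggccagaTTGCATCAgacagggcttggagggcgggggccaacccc
Chac1: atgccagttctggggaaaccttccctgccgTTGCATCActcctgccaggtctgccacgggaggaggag
Ppp1r15a: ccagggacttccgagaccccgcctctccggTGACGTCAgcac

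Around the core, the 3 stretches had the same base at 1 of the 20 positions within 10 bases on either side. The hybrid site TGACGCAA, which joins parts of both elements, was in 0.49% of windows and in Chac1 at the far end of its window. The CCAAT box, bound by NF-Y, was present in 7 members (37.4% of windows) and the GC box GGGCGG, bound by Sp1, also in 7 (35.7% of windows), while the ER stress element was in no member and in 0.119% of windows. All windows include those of genes not tested here. Of 9625 tested genes outside the list with a window, 4248 held the CCAAT box and 6697 the GC box. For the GC box, 7 of 10 members is thus about the share of tested genes. The windows of Atf4, Ddit3, Atf5, Sesn2 and Cebpg held none of the C/EBP-ATF, cAMP response element or hybrid site letters, which says only that they are not within these windows.

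**Figure D1:**
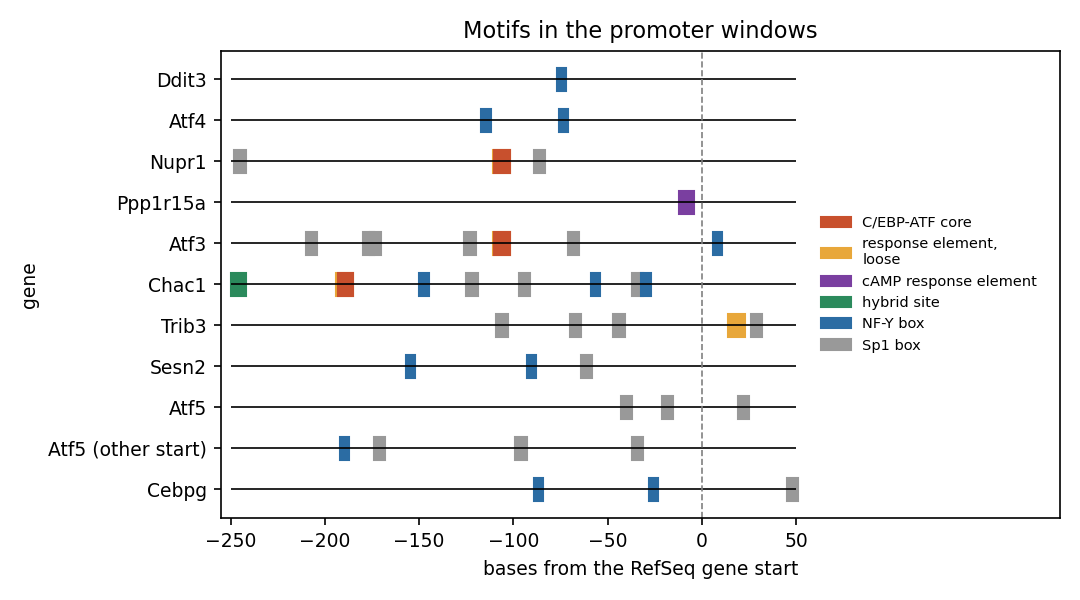
Motifs in the RefSeq promoter windows of the 10 genes, drawn as blocks along the distance in bases from the gene start (dashed line), 1 line per start, ordered by level with the inhibitor. NF-Y box stands for the CCAAT box and Sp1 box for the GC box. The C/EBP-ATF core starts at position −110 in Atf3 and Nupr1 and at −193 in Chac1.

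All 10 genes had higher levels with NP-G2-044. Together they summed to 438.3 ± 10.6 TPM without the inhibitor and 4134 ± 73.2 TPM with it (SD, n = 3 each), or 0.0438% and 0.414% of all transcripts. In no member did the libraries of the 2 groups overlap. Of all tested genes 40.5% were likewise apart with the inhibitor above. Each of the 10 was called, meaning that it passed both cutoffs that the study used, an adjusted p of 0.05 (here from edgeR's quasi-likelihood test, Benjamini-Hochberg method) and a log2 fold change of 1. By the same rule 6.48% of all tested genes were called higher and 10.1% lower. Log2 fold changes are given throughout as inhibitor over no inhibitor, and those of the members ran from 1.18 to 5.28 with a median of 3.49, against a median of 0.00185 over all tested genes. Since the genes were chosen with this comparison known, nothing is read from these counts.

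Atf4 (Entrez gene 11911, chr15:80255184-80257545, plus strand) encodes the activator at the centre of the response. It had 170.69, 182.72 and 175.36 TPM in the IL-1β libraries and 844.21, 855.71 and 821.69 TPM in the NP-G2-044 libraries. It was the most abundant of the 10 with IL-1β and rested on 2638 to 2721 reads per library there. The means of 176.3 ± 6.06 and 840.5 ± 17.3 TPM (SD, n = 3 each) differed 4.77-fold, a log2 fold change of 2.30 with a standard error (SE) of 0.0298.

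Ddit3 (Entrez gene 13198, chr10:127290793-127296291, plus strand) encodes CHOP, a C/EBP family factor known for its part in stress-induced cell death. Its levels were 60.91, 68.32 and 66.97 TPM with IL-1β and 1210.57, 1271.15 and 1195.24 TPM with NP-G2-044. The lowest library with the inhibitor was 17.5 times the highest without it. Ddit3 had the largest absolute difference of the 10, 1161 TPM, with a log2 fold change of 4.05 (SE 0.039). It went from rank 3 to rank 1 in abundance among the 10 genes. In GENCODE a second protein-coding entry, also named Ddit3 and on the same strand, shares 105 of its 1713 exonic bases (6.13%), and the deposited table has 1 row for Ddit3. On the opposite strand, its exons overlap those of the methionyl-tRNA synthetase gene by 68 bases (3.97%) and those of Gm4189 by 13. The synthetase gene, Mars1, had a log2 fold change of 0.15, and the sources used here do not say if reads were counted by strand.

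Atf3 (Entrez gene 11910, chr1:191170296-191183333, minus strand) encodes a stress-induced factor that mostly acts as a repressor and that is also an immediate early gene. It was near the middle of all listed genes with IL-1β, at 7.64, 8.55 and 7.72 TPM, and reached 297, 305.17 and 307.56 TPM with NP-G2-044. The 38.0-fold difference, a log2 fold change of 5.28 (SE 0.048), was the largest of the 10. It ranked 16 among all 11983 tested genes and 2 among the 8335 of them with a mean of at least 10 TPM.

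Atf5 (Entrez gene 107503, chr7:44812256-44816658, minus strand), the closest relative of Atf4 and known for a part in the mitochondrial stress response, had 14.75, 14.35 and 16.44 TPM with IL-1β and 40.78, 40.98 and 42.49 TPM with NP-G2-044. Its log2 fold change was 1.48 (SE 0.0651). Its exons share 82 bases, 4.11% of their length, with exons of Nup62 and Il4i1 on the opposite strand. Nup62 had a log2 fold change of 0.41 and Il4i1 one of 0.99.

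Cebpg (Entrez gene 12611, chr7:35046422-35056566, minus strand) encodes C/EBPγ, a dimer partner of ATF4 on response elements. Its levels of 14.63, 14.86 and 15.28 TPM with IL-1β and 33.72, 33.09 and 32.64 TPM with NP-G2-044 gave the smallest difference of the 10, a log2 fold change of 1.18 (SE 0.0413). The 2 members with the lowest fold changes were thus the bZIP (basic leucine zipper) factor genes Atf5 and Cebpg, and they were also the 2 least abundant members with the inhibitor.

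Nupr1 (Entrez gene 56312, chr7:126623246-126625470, minus strand) encodes a small chromatin-associated stress protein. It stood at 107.83, 99.75 and 115.57 TPM with IL-1β and at 706.92, 744.67 and 734.43 TPM with NP-G2-044, a log2 fold change of 2.77 (SE 0.0447). Among the 10 genes it was at rank 2 in abundance with IL-1β and at rank 3 with the inhibitor.

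Trib3 (Entrez gene 228775, chr2:152337425-152344060, minus strand) encodes a pseudokinase that binds ATF4 and CHOP and restrains them. Its levels were 6.7, 6.74 and 7.82 TPM in the IL-1β libraries and 234.23, 230.96 and 231.31 TPM with NP-G2-044, 32.8-fold higher, a log2 fold change of 5.06 (SE 0.0495). The IL-1β values rest on 125 to 148 reads per library.

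Ppp1r15a (Entrez gene 17872, chr7:45522917-45526268, minus strand) encodes GADD34, the inducible subunit that brings protein phosphatase 1 to eIF2 and ends the response. Its levels were 26.2, 25.09 and 25.31 TPM with IL-1β and 375.38, 391.97 and 385.77 TPM with NP-G2-044. The groups lay 15.1-fold apart, a log2 fold change of 3.94 (SE 0.0374).

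Chac1 (Entrez gene 69065, chr2:119351242-119354326, plus strand) encodes an enzyme that degrades glutathione. It had 11.91, 12.05 and 10.59 TPM with IL-1β and 291.34, 289.85 and 290.45 TPM with NP-G2-044. The 3 inhibitor-treated libraries differed by less than 2 TPM, and the groups were 25.2-fold apart, a log2 fold change of 4.68 (SE 0.0486).

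Sesn2 (Entrez gene 230784, chr4:132492804-132510456, minus strand) encodes a leucine sensor that restrains the growth kinase complex mTORC1. It was the least abundant of the 10 with IL-1β at 6.01, 6.64 and 7.44 TPM, and reached 52.94, 54.41 and 54.01 TPM with NP-G2-044, a log2 fold change of 3.04 (SE 0.0589).

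**Figure D2:**
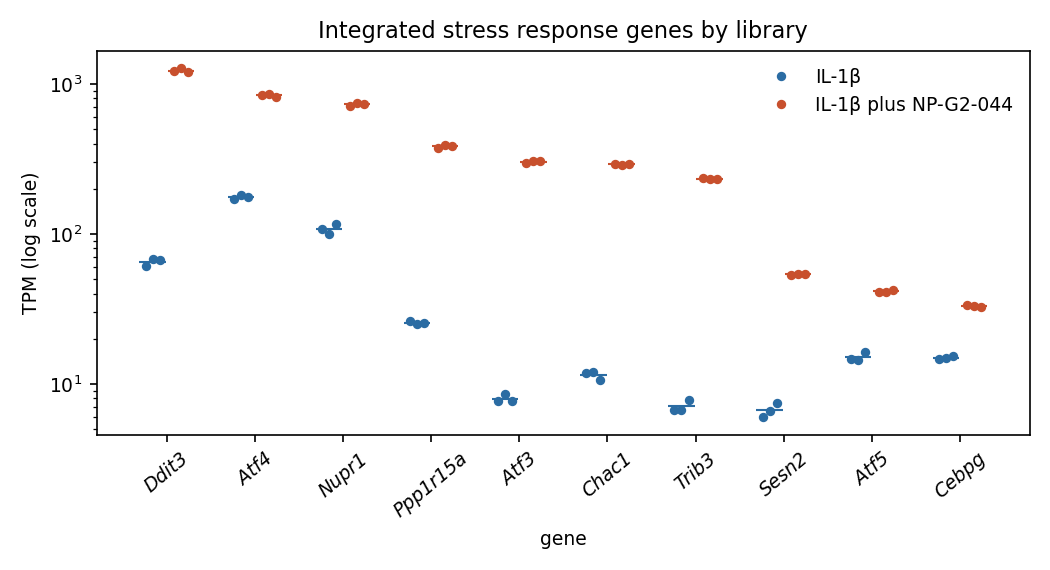
Level of each of the 10 genes in each library, in TPM on a log scale, with genes ordered by their mean with IL-1β plus NP-G2-044. Points are libraries (3 per group) and short lines are group means. Every red point (NP-G2-044) lies above every blue point (IL-1β) of the same gene, with the widest gap for Atf3 and the narrowest for Cebpg.

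The order of the levels changed between the groups. With IL-1β it ran from Atf4 through Nupr1, Ddit3, Ppp1r15a, Atf5, Cebpg, Chac1, Atf3 and Trib3 to Sesn2. The libraries of Atf5 overlapped those of Cebpg, those of Atf3 overlapped those of Trib3, and those of Trib3 overlapped those of Sesn2, so these neighbours did not differ beyond their spread. With NP-G2-044 the order was Ddit3, Atf4, Nupr1, Ppp1r15a, Atf3, Chac1, Trib3, Sesn2, Atf5 and Cebpg, and no neighbours overlapped. Relative to all 16880 listed genes, Ddit3 went from the 85.58th to the 99.37th percentile of mean TPM and Trib3 from the 46.85th to the 96.66th.

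Set against Atf4 in the same library, the members fell into those whose ratio went up and those whose ratio went down. Ddit3 was 0.357 to 0.382 times the level of Atf4 with IL-1β and 1.43 to 1.49 times with NP-G2-044. Atf3 went from 0.044 to 0.0468 times Atf4 to 0.352 to 0.374 times. Nupr1 showed a smaller step, from 0.546 to 0.659 to 0.837 to 0.894 times. The ratio of Atf5 fell from 0.0785 to 0.0938 to 0.0479 to 0.0517 and that of Cebpg from 0.0813 to 0.0871 to 0.0387 to 0.0399. For these 2 genes the mRNA was higher with the inhibitor but by a smaller factor than that of Atf4.

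**Figure D3:**
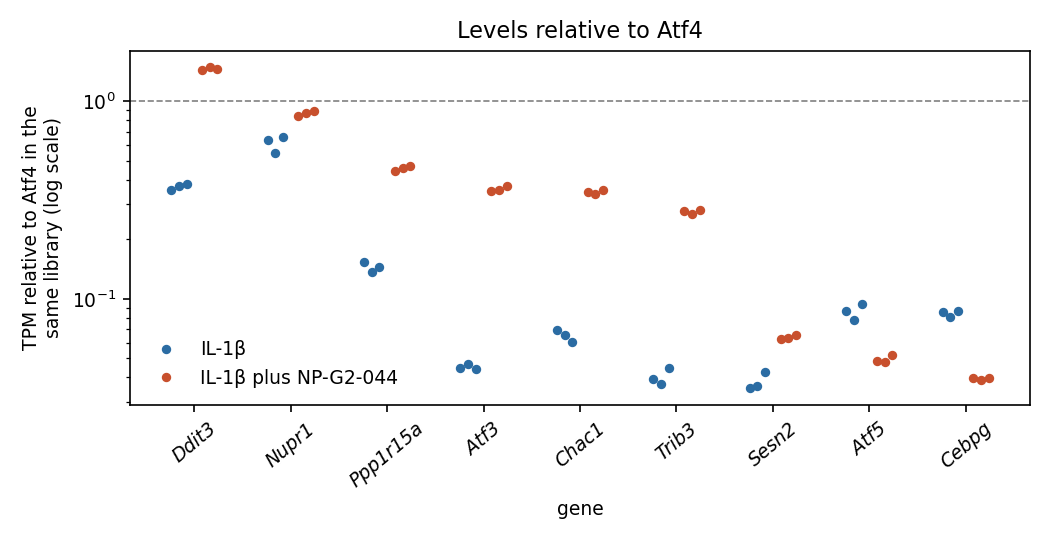
Level of the other 9 genes divided by the level of Atf4 in the same library, on a log scale, with a dashed line at equality. Points are libraries, blue without and red with the inhibitor. Ddit3 crosses the line, and Atf5 and Cebpg are the 2 genes whose red points lie below the blue ones.

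Within a group the members varied little. The coefficient of variation of TPM was 2.21% to 10.7% with IL-1β and 0.258% to 3.27% with NP-G2-044, where the error of counting reads alone would give 1.93% to 8.65% and 0.849% to 3.81%. In 4 of the 10 genes with IL-1β and 5 of the 10 with NP-G2-044 the spread between libraries was below that counting error. No library held the highest or lowest value of all 10 genes. Replicate 3 of the IL-1β group was highest for 5 and replicate 1 lowest for 6, and with NP-G2-044 replicate 2 was highest for 5.

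The paralogs of the members were compared next, as genes of related sequence that the list did not include. Of 11 tested, 2 were higher and 6 lower at an adjusted p of 0.05 by the same edgeR test, adjusted over all tested genes, where 40.2% of all tested genes were higher and 39.8% lower. Beside Trib3, both other Tribbles genes fell, Trib1 from 5.31 ± 0.125 to 2.74 ± 0.317 TPM and Trib2 from 1.77 ± 0.348 to 0.33 ± 0.0436 TPM (SD, n = 3 each). Their log2 fold changes were −0.92 (adjusted p = 5.48e-12) and −2.49 (adjusted p = 7.68e-15 from edgeR's test). Beside Sesn2, the other sestrin genes, Sesn1 (a p53 target) and Sesn3, also fell, with log2 fold changes of −0.88 (SE 0.0543, adjusted p = 7.68e-21) and −1.20 (SE 0.101, adjusted p = 1.39e-15 from edgeR's test). Chac2, which has a slower activity on glutathione than Chac1, fell from 5.11 ± 0.417 to 3.55 ± 0.684 TPM (log2 fold change −0.50, adjusted p = 0.00789 from edgeR's test). Ppp1r15b, the constitutive counterpart of Ppp1r15a, rose from 23.3 ± 0.554 to 27.6 ± 1.35 TPM, a log2 fold change of 0.28 (adjusted p = 3.58e-09 from edgeR's test). Jdp2, the closest relative of Atf3, rose from 25.9 ± 1.58 to 57.6 ± 2.71 TPM, a log2 fold change of 1.18 (adjusted p = 5.23e-26 from edgeR's test), and its promoter window also holds the C/EBP-ATF core.

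Among C/EBP genes, Cebpd fell from 21.6 ± 1.5 to 17.6 ± 1.39 TPM, a log2 fold change of −0.27 (adjusted p = 0.000448 from edgeR's test). Cebpb, a known ATF4 partner, had 90.92, 94.22 and 64.78 TPM with IL-1β and 104.54, 75.06 and 55.58 TPM with NP-G2-044. Its groups overlapped and its spread was far wider than that of any member (log2 fold change −0.06, SE 0.298, adjusted p = 0.864 from edgeR's test). Cebpa, at about 0.5 TPM, and Nupr1l did not pass the test either, with log2 fold changes of 0.26 (SE 0.31, adjusted p = 0.451) and 0.42 (SE 0.338, adjusted p = 0.254 from edgeR's test).

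Upstream of the core, 24 genes were tested. They were those of the eIF2 kinases, eIF2, its exchange factor eIF2B and its phosphatases. Gcn1, Impact, Dele1, Oma1, Eif2a, Eif2d, Nck1 and Dnajc3 completed the list. At an adjusted p below 0.05, 11 were higher (45.8%, against 40.2% of all tested genes) and 8 lower, and their median log2 fold change was 0.04. Called higher were 2 of the 24 (8.33%, against 6.48% of all tested genes). Eif2ak3, which encodes PERK and responds to ER stress, rose from 13.4 ± 0.534 to 15.5 ± 0.113 TPM, a log2 fold change of 0.24 (adjusted p = 2.39e-05 from edgeR's test). Eif2ak2, which encodes PKR and responds to double-stranded RNA, fell from 26.3 ± 1.57 to 19.6 ± 0.17 TPM, a log2 fold change of −0.37 (adjusted p = 1.79e-12 from edgeR's test). Eif2ak1 (HRI, which senses heme and mitochondrial stress) and Eif2ak4 (GCN2, which senses amino acid shortage) did not pass the test, with log2 fold changes of −0.01 (SE 0.0346, adjusted p = 0.895) and 0.03 (SE 0.0464, adjusted p = 0.555 from edgeR's test). The largest rises of the list were those of Impact, an inhibitor of GCN2, from 141 ± 4.9 to 366 ± 0.215 TPM (log2 fold change 1.39), and Eif2b3, an eIF2B subunit, from 45.6 ± 2.91 to 101 ± 3.73 TPM (log2 fold change 1.17). The largest falls were those of Ppp1cc, a catalytic subunit of protein phosphatase 1 (log2 fold change −0.74), and Nck1, an adaptor protein (log2 fold change −0.41). Kinase activity is set on the protein and was not measured.

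Among 33 tested bZIP genes other than the members, 19 were higher (57.6%, against 40.2% of all tested genes) and 9 lower at an adjusted p below 0.05. Of these, 10 and 3 were past the fold change cutoff too. The 10 called higher were 30.3% of the list, against 6.48% of all tested genes. The lists of this report share genes, so their counts are not independent. For example, Jdp2 is also a paralog above. Below, Atf6 and Xbp1 are counted again in the ER stress branch, Nfil3 among the ATF4 and CHOP targets and Jun among the immediate early genes. The largest rises were those of Maff, a small Maf protein gene, with a log2 fold change of 1.90 (adjusted p = 1.07e-19), and Atf6, the membrane-bound factor of the ER stress response, from 10.9 ± 0.711 to 39.1 ± 0.208 TPM with a log2 fold change of 1.88 (adjusted p = 9.26e-43 from edgeR's test). The largest falls were those of Creb3l1, from 7.21 ± 0.89 to 0.627 ± 0.0404 TPM, with a log2 fold change of −3.47 (adjusted p = 1.75e-24), and Hlf, on 54 reads in all, with −2.001 (adjusted p = 3.73e-05 from edgeR's test).

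Like every list in this report, the downstream lists were written with earlier results of these data known. Their shares and p-values are therefore descriptions. Downstream, the 23 tested amino acid genes known to carry ATF4 sites were mostly higher. Of these, 22 were higher (95.7%, against 40.2% of all tested genes) and 1 lower, 19 were past the fold change cutoff (82.6%, against 6.48%), and their median log2 fold change was 1.94. Aldh1l2, a mitochondrial folate enzyme gene, rose from 15.5 ± 1.4 to 210 ± 3.71 TPM, a log2 fold change of 3.79 (SE 0.0375, adjusted p = 1.59e-47), and the glycine transporter gene Slc6a9 from 11.7 ± 0.925 to 130 ± 1.7 TPM, a log2 fold change of 3.502 (SE 0.0424, adjusted p = 8.34e-53 from edgeR's test). The 1 gene that fell was Slc38a2, a neutral amino acid transporter, from 197 ± 6.15 to 164 ± 8.22 TPM (log2 fold change −0.24, adjusted p = 1.48e-10 from edgeR's test).

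A second list held other genes known to respond to ATF4 or CHOP. Of 25 tested, 21 were higher (84%, against 40.2% of all tested genes) and 2 lower. Called higher were 20 of the 25 (80%, against 6.48% of all tested genes), and the median log2 fold change was 1.68. Its largest rises were those of Car6, a carbonic anhydrase gene with a CHOP-dependent transcript, from 0.0867 ± 0.085 to 5.96 ± 0.448 TPM, and Cdsn, from 6.76 ± 0.23 to 160 ± 1.86 TPM (log2 fold change 4.595). Car6 rested on 3 reads over the IL-1β libraries and 223 over the others, a ratio per library size of 70.6 with an exact 95% counting interval of 23.9 to 345, which covers counting error only. Bcl2l11, which encodes the death-promoting BH3 protein BIM, fell from 7.91 ± 0.276 to 2.76 ± 0.33 TPM (log2 fold change −1.53, adjusted p = 1.18e-22), and Ddit4, which encodes REDD1, another restraint on mTORC1, fell from 190 ± 14.4 to 133 ± 4.04 TPM (log2 fold change −0.48, adjusted p = 5.7e-05 from edgeR's test). The stress hormone genes of the list stayed below the filter, Fgf21 with 1 read over the IL-1β libraries and 4 over the others and Gdf15 with 2 and 16. These 2 genes were picked out after their values were seen.

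The parallel ER stress branch that runs through ATF6 and XBP1 had 13 of 24 tested genes higher (54.2%) and 6 lower, with 6 called higher (25%) and a median log2 fold change of 0.22. Of all tested genes 40.2% were higher, 39.8% lower and 6.48% called higher. Its largest rise beside Atf6 was that of the ER chaperone gene Hspa5, from 256 ± 4.92 to 879 ± 14.6 TPM (log2 fold change 1.81, adjusted p = 1.82e-48), while Pdia4 and Pdia3, which encode ER disulfide isomerases, fell by 0.39 and 0.36 on the log2 scale (adjusted p = 1.1e-16 and 3e-17 from edgeR's test). In the mitochondrial stress list 10 of 14 genes were higher (71.4%) and 2 lower, with a median of 0.21, and 3 were called higher (21.4%). The protease gene Lonp1 had a log2 fold change of 1.71 and the chaperone gene Hspa9 one of 1.29. Dele1, whose product relays mitochondrial stress to HRI, fell from 26.1 ± 0.189 to 23.4 ± 0.986 TPM (log2 fold change −0.13, adjusted p = 0.0275 from edgeR's test). The protease gene Yme1l1 had a log2 fold change of −0.27 (adjusted p = 1.25e-10 from edgeR's test). The count of lower genes in this list was 1 without replicate 1 or replicate 3 of either group.

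Other pathways are known to reach some members, Sesn2 and Atf3 through p53, Sesn2 through NRF2 and Atf3 and Ppp1r15a as immediate early genes. Of 21 tested p53 targets, 14 were higher (66.7%, against 40.2% of all tested genes) and 3 lower, with a median log2 fold change of 0.70. Called higher were 7 of the 21 (33.3%, against 6.48% of all tested genes). Plk2 rose the most, from 14.4 ± 1.24 to 139 ± 6.07 TPM (log2 fold change 3.30), followed by Perp at 2.49 on 57 reads, and Fas and Sesn1 fell, with −1.55 and −0.88. Of 18 NRF2 targets, 9 were higher and 8 lower, with a median of 0.15, and 3 were called higher (16.7%). Hmox1 had a log2 fold change of 3.20 and Slc7a11, which is also an ATF4 target, one of 2.21, while Nqo1 had −1.43 and Osgin1 −0.83. Of 18 immediate early genes, 11 were higher and 4 lower, with a median of 0.56, and 6 were called higher (33.3%). Klf2 had a log2 fold change of 1.94 and Jun one of 1.62, while Arc had −2.61 on 97 reads and Dusp1 −0.82.

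**Figure D4:**
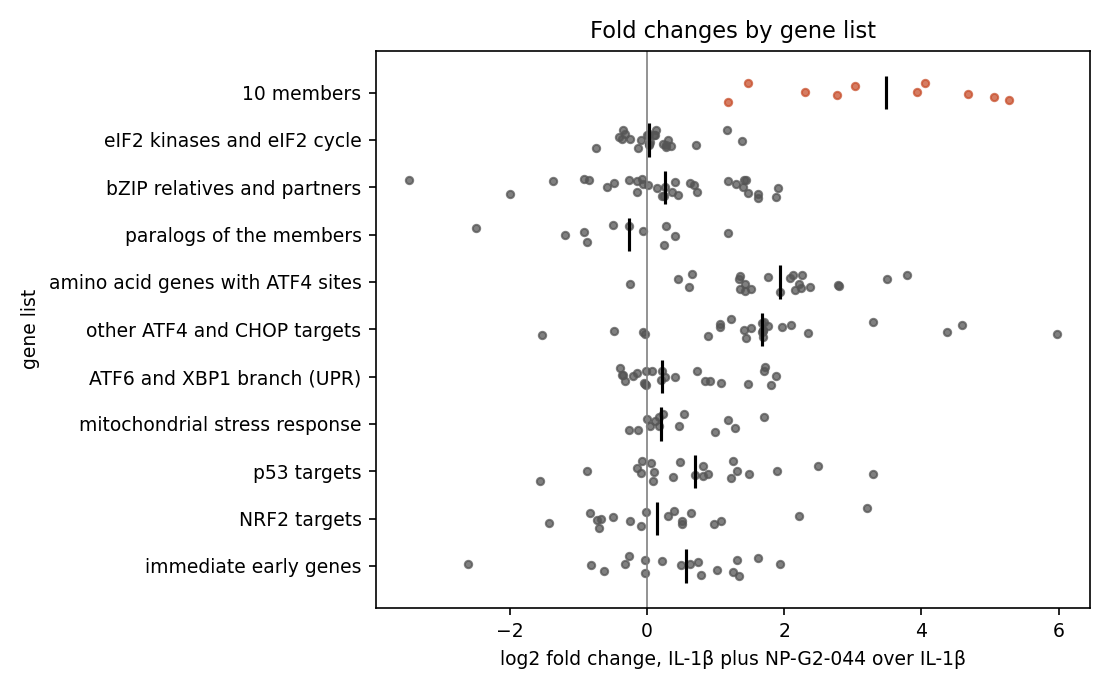
Log2 fold change of inhibitor over no inhibitor for the 10 members (red) and for the tested genes of each of 10 further lists (grey), 1 point per gene with a vertical bar at the median of the list. The amino acid genes and the other ATF4 and CHOP targets have medians of 1.94 and 1.68, and the eIF2 list one of 0.04.

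The genes with the profile most like the mean of the 10 members were sought among the other 8325 tested genes with a mean of at least 10 TPM. Likeness was the root mean square difference over the 6 libraries in log2 CPM, each gene centred on its IL-1β mean. The members' mean profile was 3.35 to 3.39 above the IL-1β level in the NP-G2-044 libraries. The nearest genes were Plk2 (difference 0.0829), Gadd45a (0.0925), Acot2 (0.115), Slc6a9 (0.117) and Hmox1 (0.122). With only 2 conditions this likeness is mostly that of the fold change, which was 3.202 to 3.502 on the log2 scale for these 5 genes.

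Finally, the response element, chosen like the lists with earlier results of these data known, was followed beyond the members. Of 9625 tested genes outside the list with a promoter window, 67 held the C/EBP-ATF core, and 22 of these were called higher with NP-G2-044 (32.8%), against 5.83% of the genes without it. Called lower were 6 of the 67 (8.96%), against 9.44%. The median log2 fold change was 0.38 with the core and 0.00511 without it. For the looser element the shares called higher were 17.3% of 254 genes and 5.71% of the rest, for the hybrid site 12.7% of 102 and 5.94%, and for the cAMP response element 9.14% of 350 and 5.9%. For the CCAAT box they were 5.63% of 4248 and 6.32%, and for the GC box 5.66% of 6697 and 6.83%. The ER stress element was in 16 genes, 1 of them called higher. Of the 22 called genes with the core, 8 belong to the pathway lists above, and outside all of those lists 14 of 58 genes with the core were called higher (24.1%), against 5.45% of 9418 without it. Among those 14, picked out after their values were seen, were the tRNA synthetase genes Yars, Iars and Tars, with log2 fold changes of 1.45, 1.15 and 1.05, and Gadd45g, a growth arrest gene, which rose from 62.9 ± 2.76 to 283 ± 15.4 TPM (log2 fold change 2.20). Some of the 14 were low. The means without and with the inhibitor were 0 and 1.17 TPM for 4930438A08Rik and 0.493 and 1.29 TPM for Grhl1. They were 0.59 and 3.16 TPM for Pdzd7 and 0.617 and 4.77 TPM for Avil. Other tRNA synthetase genes, such as Aars, are in the list of ATF4 and CHOP targets, so the 14 are not free of such gene families. A match of letters is not evidence that a factor is bound there, and no binding was measured.

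**Figure D5:**
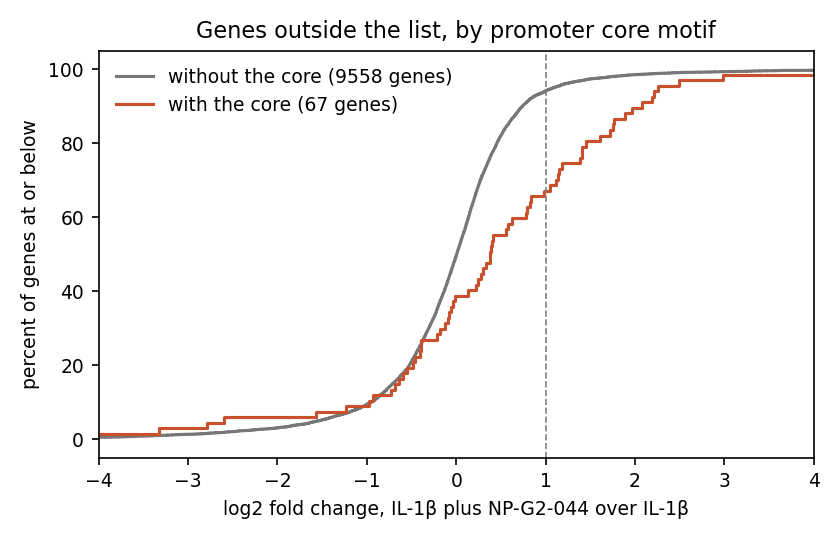
Cumulative percent of tested genes outside the list at or below each log2 fold change of inhibitor over no inhibitor, shown between −4 and 4, for 67 genes with the C/EBP-ATF core in the promoter window (red) and 9558 without it (grey). The dashed line is the cutoff of 1, and 32.8% of the genes with the core against 5.83% of the rest were called higher.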

How the data were processed

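The submitters' processing notes name cutadapt, HISAT2 2.0, StringTie and the mm10 build, with no roles or order. The authors deposited 1 table of estimated counts of reads per gene, which are not normalized and of which 10.17% to 11.06% per library are not whole. The authors also deposited TPM and FPKM made within each library, and the means of each group. The FPKM and the means were not used. The deposited TPM are printed as given.

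Counts were rounded, filtered (filterByExpr, minimum count of 10), scaled by TMM and fitted in edgeR 4.0.16 (R 4.3.3, quasi-likelihood test), 3 libraries against 3 without covariates, with Benjamini-Hochberg adjustment over 11983 genes. A gene was called at an adjusted p below 0.05 and an absolute log2 fold change above 1. A standard error is the log2 fold change over the square root of F. Alternatives used DESeq2 1.42.0 and limma 3.58.1, and the steps were tested on simulated counts. The members, lists and motifs were chosen with earlier results of these data known. Named were all members, all tested paralogs and eIF2 kinases, and in each other list the 2 largest rises and falls past an adjusted p of 0.05. Promoter windows and coordinates are RefSeq's, matched by Entrez gene ID. Exon overlaps are from GENCODE vM21, whose transcripts held no copy of a member at 95% identity over 200 bases (blastn). Same-numbered libraries did not deviate together, so the numbers were not used as pairs.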

Additional observations from a re-analysis of the deposited data

How the results depend on the processing

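All 10 members were called higher under each of the 14 alternatives, with log2 fold changes between 1.10 and 1.20 for Cebpg and between 5.09 and 5.32 for Atf3. Over all tested genes, the number called higher ran from 484 of 9447 with a stricter filter to 1011 of 16165 with no filter. The members were chosen with this comparison known, so nothing is read from their counts here either. A stricter filter, 10 CPM or more in 3 libraries, left 9447 genes and gave 484 called higher and 680 lower over all genes instead of 776 and 1211, 9 p53 targets higher instead of 14 and 1 immediate early gene lower instead of 4. That filter leaves low genes of the lists untested, such as Perp on 57 reads and Arc on 97. These list counts therefore fall partly because fewer genes were tested. limma on log2(TPM + 1), which shrinks low genes, gave 514 called higher and 802 lower. The count of lower genes in the mitochondrial list was 2, with DESeq2 1, and with each library left out 1 to 2. It was 1 without replicate 1 or 3 of either group. Without a filter 2 amino acid genes were lower instead of 1. The added gene was Cbs, with 6 reads over the IL-1β libraries and 0 over the others. With the replicate number as a block (replicate block) 775 genes were called higher and 1209 lower, and no count moved by over 1.5 times. The correlation of deviations of same-numbered libraries was −0.0934 to 0.0259. The 22 called genes with the C/EBP-ATF core were 17 to 24 under the alternatives, which were chosen for this count after seeing the data. Depth limits the genes below 1 TPM, such as Fgf21 and Gdf15, rather than the members, the least counted of which had 125 reads in a library.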
